A study of Rattus norvegicus with 6 samples.

Results

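Mitosis genes are the genes whose products carry a cell from the start of chromosome condensation to the separation of its daughter cells. The set held 49 genes listed by role (spindle, checkpoint, kinetochore and cytokinesis), and its members on the array were the probes that the platform annotation gives one of these symbols. Of the 49 genes, 36 had a probe, with 37 probes in all, and 34 genes were tested among 7580 genes in the whole series. Detection here means a detection p under 0.05, the share of negative control beads that read as bright as the probe, and a probe was kept when it was detected on at least 3 of the 6 arrays. All 34 tested members were detected on all 6 arrays, so none entered through 1 genotype alone. The probes of Ccnb1 and Cenpa and the second of 2 Kif11 probes were detected on no array and have no level here. The other 13 genes (Anln, Birc5, Cenpe, Ckap2, Espl1, Kif4a, Mki67, Ncapg, Ncaph, Nek2, Pttg1, Smc4 and Top2a) were not analysed here.

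The RNA came from cultured primary rat astrocytes. The M337V group carried 2 transgenes, GFAP-tTA and TRE-TDP43M337V, and the tTA group, the control, carried GFAP-tTA alone. tTA is a transcription factor that switches on the TRE promoter once doxycycline (Dox) is withdrawn, and the GFAP promoter limits it to cells that use that promoter, so mutant TDP-43, an RNA-binding protein linked to amyotrophic lateral sclerosis, was induced in such cells of the double transgenic cultures. Both groups had Dox withdrawn for 3, 4 or 6 days, with 1 Illumina array per genotype and day. Neither the age of the animals nor the number of cultures is in the labels. The p-values therefore measure how much the genotype gap varied over the 3 days, which may be technical, and a difference between single cultures and a difference between genotypes cannot be told apart.

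Dividing cells make the mitotic RNAs in a burst late in the cell cycle and clear them afterwards. Cdk1 bound to a B-type cyclin starts mitosis, the spindle checkpoint holds chromosome separation until every kinetochore is attached, and the anaphase-promoting complex with Cdc20 then marks cyclin B and securin for destruction. Astrocytes in culture divide while the culture is young, and the level of these RNAs in a bulk sample is commonly read as a measure of proliferation. In such a sample, more cells in mitosis and more mitotic RNA per cell cannot be told apart.

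Many mitotic promoters hold a cell cycle genes homology region (CHR), bound in human and mouse cells by the repressor complex DREAM in resting cells and by MuvB with B-MYB and FOXM1 in dividing cells, along with CCAAT boxes, bound by NF-Y. RefSeq promoter windows of the GRCr8 assembly, 250 bases before to 50 after a gene start, were given for 27 of the 34 tested members. Each window was searched for CCAAT and its complement ATTGG, and for the CHR letters TTTGAA (complement TTCAAA) and TTTAAA. One of the 2 CHR forms stood in 25 of the 27 windows (92.6%), against 27.9% of 27457 rat promoter windows and 18.9% of the 6314 windows of genes tested here. CCAAT stood in 19 (70.4%), against 37.7% and 37.9%, and 15 windows held 2 or more. Of 35 CHR matches, 29 began within 100 bases before to 50 bases after the gene start. One pair of matches overlapped, in Cdca8. Melk and Cdca3 were the 2 windows without a CHR match, and Melk had no CCAAT either. A match describes letters and is not evidence that the site is used.

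The windows of 5 genes are shown, with CHR and CCAAT matches in capitals, because these genes carry the results below. The windows of Bub1b (chr3:126016817-126017116, + strand), Kif2c (chr5:135899163-135899462, - strand) and Cdc20 (chr5:137255750-137256049, - strand) belong to the members with the largest genotype differences among those with a window. Those of Ccnb2 and Cdk1, the cyclin and kinase that start mitosis, were added after their values were seen (chr8:79981609-79981908, - strand and chr20:19265043-19265342, + strand).
Bub1b: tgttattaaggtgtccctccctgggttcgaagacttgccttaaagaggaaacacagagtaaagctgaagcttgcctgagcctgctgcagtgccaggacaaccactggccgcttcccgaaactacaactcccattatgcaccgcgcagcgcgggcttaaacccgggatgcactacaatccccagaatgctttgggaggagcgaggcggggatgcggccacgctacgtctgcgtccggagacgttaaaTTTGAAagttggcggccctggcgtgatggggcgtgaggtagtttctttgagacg
Kif2c: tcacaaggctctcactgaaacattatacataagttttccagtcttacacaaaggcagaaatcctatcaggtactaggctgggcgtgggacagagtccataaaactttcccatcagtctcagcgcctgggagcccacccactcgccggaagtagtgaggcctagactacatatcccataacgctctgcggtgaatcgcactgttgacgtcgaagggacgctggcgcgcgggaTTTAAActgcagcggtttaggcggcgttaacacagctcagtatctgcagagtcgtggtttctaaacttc
Cdc20: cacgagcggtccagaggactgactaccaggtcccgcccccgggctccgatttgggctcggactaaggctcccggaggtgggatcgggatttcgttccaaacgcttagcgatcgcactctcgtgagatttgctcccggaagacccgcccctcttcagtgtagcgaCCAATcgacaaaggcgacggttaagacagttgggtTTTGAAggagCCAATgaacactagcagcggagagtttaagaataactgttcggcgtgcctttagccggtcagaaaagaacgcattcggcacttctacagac
Ccnb2: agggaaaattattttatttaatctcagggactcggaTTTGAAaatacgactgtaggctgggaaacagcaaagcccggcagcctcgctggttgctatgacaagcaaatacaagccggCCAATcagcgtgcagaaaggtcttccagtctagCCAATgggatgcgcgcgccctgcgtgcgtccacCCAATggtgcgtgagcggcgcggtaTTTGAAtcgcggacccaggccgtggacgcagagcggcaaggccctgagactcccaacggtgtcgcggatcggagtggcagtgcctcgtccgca
Cdk1: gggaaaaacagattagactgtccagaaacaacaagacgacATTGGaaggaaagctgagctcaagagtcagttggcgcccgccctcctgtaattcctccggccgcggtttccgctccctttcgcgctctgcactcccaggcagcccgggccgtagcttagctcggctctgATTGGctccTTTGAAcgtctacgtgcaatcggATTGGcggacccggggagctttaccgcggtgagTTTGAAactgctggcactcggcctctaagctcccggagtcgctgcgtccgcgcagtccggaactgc

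Among the printed windows, Bub1b and Kif2c held 1 CHR match and no CCAAT, with first bases at -4 and -19 from the gene start. Cdc20 held a CHR match at -51 between 2 CCAAT boxes, and Ccnb2 held 3 CCAAT boxes on the strand of the gene. The map of motif matches gives all 27 windows.

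**Figure D1:**
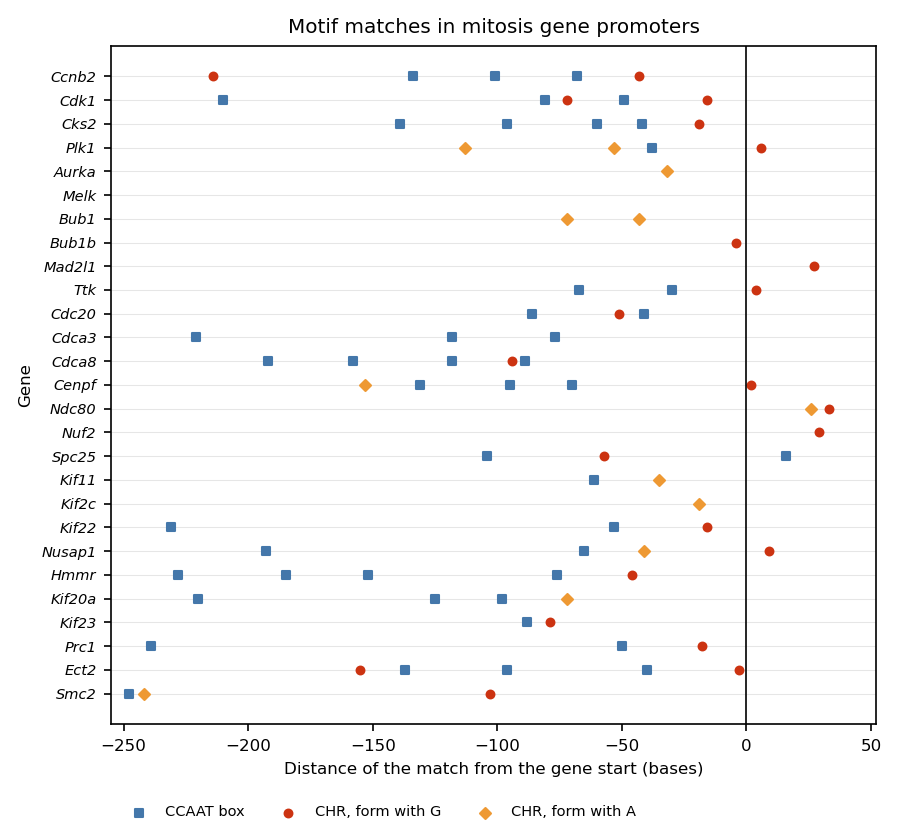
Positions of CCAAT boxes (squares) and of the 2 forms of the CHR (circles and diamonds) in 27 promoter windows, 1 row per gene, as distance in bases of the first base of a match from the gene start (0). Most CHR matches lie close to the gene start, 29 of 35 from 100 bases before to 50 after it, and 25 of the 27 genes have one.

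Mean bead signal was 377 to 554 per array, lowest on the M337V array of day 3 and highest on that of day 6. Of 22523 probes, 43.8% to 48.3% were detected. All 9 astrocyte markers with a tested probe were detected on every array, and the rat Tardbp probe differed by 0.23 ± 0.10 (SE, n = 3 days, adjusted p = 0.188) between genotypes. It is not known here whether this probe binds the transcript of the transgene, so it checks no label. Arrays of one genotype correlated at 0.979 to 0.992 across tested genes and arrays of different genotypes at 0.932 to 0.971. Markers of other cells moved with the genotype. Their counts are read against the 9.68% of all 7580 genes that rose in M337V and the 9.68% that fell. Of 11 microglia markers tested, 9 rose in M337V and none fell, with a summed normalized signal of 296 to 587 on the tTA arrays and 7710 to 25369 on the M337V arrays. Among microglia markers, Cx3cr1, C1qa, C1qc, Tyrobp and Ptprc were detected on no tTA array. Neither were Olig2, Mag and Mog of the oligodendrocyte list, Snap25 of the neuron list and Lum of the fibroblast list. Detected on 1 tTA array were Aif1, C1qb, Trem2 and Ctss of the microglia list. So were Sox10, Ugt8 and Mbp of the oligodendrocyte list and Nefl of the neuron list. Nefl was detected on 2 M337V arrays and reached 3 arrays only with its tTA array. The other tested genes among all these passed the filter through the M337V arrays, so they could hardly be called lower. On the tTA arrays that missed any of these genes the signal is background, and the tTA sums hold it. Of 8 oligodendrocyte lineage markers 6 rose (summed signal 3446 to 4044 against 7510 to 16096), all 5 ependymal markers rose (437 to 867 against 1839 to 3028), and 5 of 9 neuron markers rose (2393 to 2975 against 5578 to 6432). Among 7 fibroblast and meningeal markers 5 fell and 1 rose (39971 to 56701 against 17267 to 30529). Of the astrocyte markers, 2 rose and 1 fell. Probes of Spag6, Dcn and Rbfox3, 1 each of the ependymal, fibroblast and neuron lists, were detected on no array. The part of these other cells in the mitosis results was not tested.

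The study compared astrocytes with induced mutant TDP-43 with control astrocytes of the same day. Most mitosis genes were higher in M337V. Of the 34 tested, 26 rose at an adjusted p under 0.05 and none fell, where 9.68% of all 7580 genes rose and 9.68% fell (734 each, against 799 and 441 with median scaling and 739 and 1121 with the deposited values). The median difference was 0.62 on the log2 scale, a 1.54-fold higher normalized signal, against -0.05 over all genes tested. It was 0.63, 0.63 and 0.58 on days 3, 4 and 6. Of the 34, 31 were higher in M337V on all 3 days, a pattern that 23.1% of all genes showed. The differences were modest: 4, 3 and 4 members were at least 2-fold higher on days 3, 4 and 6, where 4.3%, 4.3% and 5.32% of all genes were, and no member was 2-fold lower on any day, where 2.3%, 1.79% and 2.23% of all genes were. Apart from Aurkb, described below, the fitted differences ran from 0.07 to 1.22.

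The genotypes overlapped for most members once the days are pooled, and normalized levels were also lower on later days. Every M337V array was above every tTA array for 9 members (Aurkb, Bub1b, Cdc20, Kif22, Kif2c, Nusap1, Prc1, Racgap1 and Tpx2), where 14.4% of all genes showed this. For 25 members the M337V array of day 3 was the highest of the 6 and the tTA array of day 6 the lowest, an order found for 4.82% of all genes. This order is of normalized signal, and the M337V array of day 3 had the lowest mean bead signal. Before normalization the median member signal in M337V was 364 on day 3 and 434 on day 4. The fit compares arrays within a day, with the day as a block. Without the replicate block only Aurkb, Bub1b and Prc1 passed, 3 members in place of 26. Leaving out day 3, 4 or 6 gave 15, 9 and 19 members higher and none lower. The counts over all genes in these fits are not given here, so the smaller member counts cannot be set against them.

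**Figure D2:**
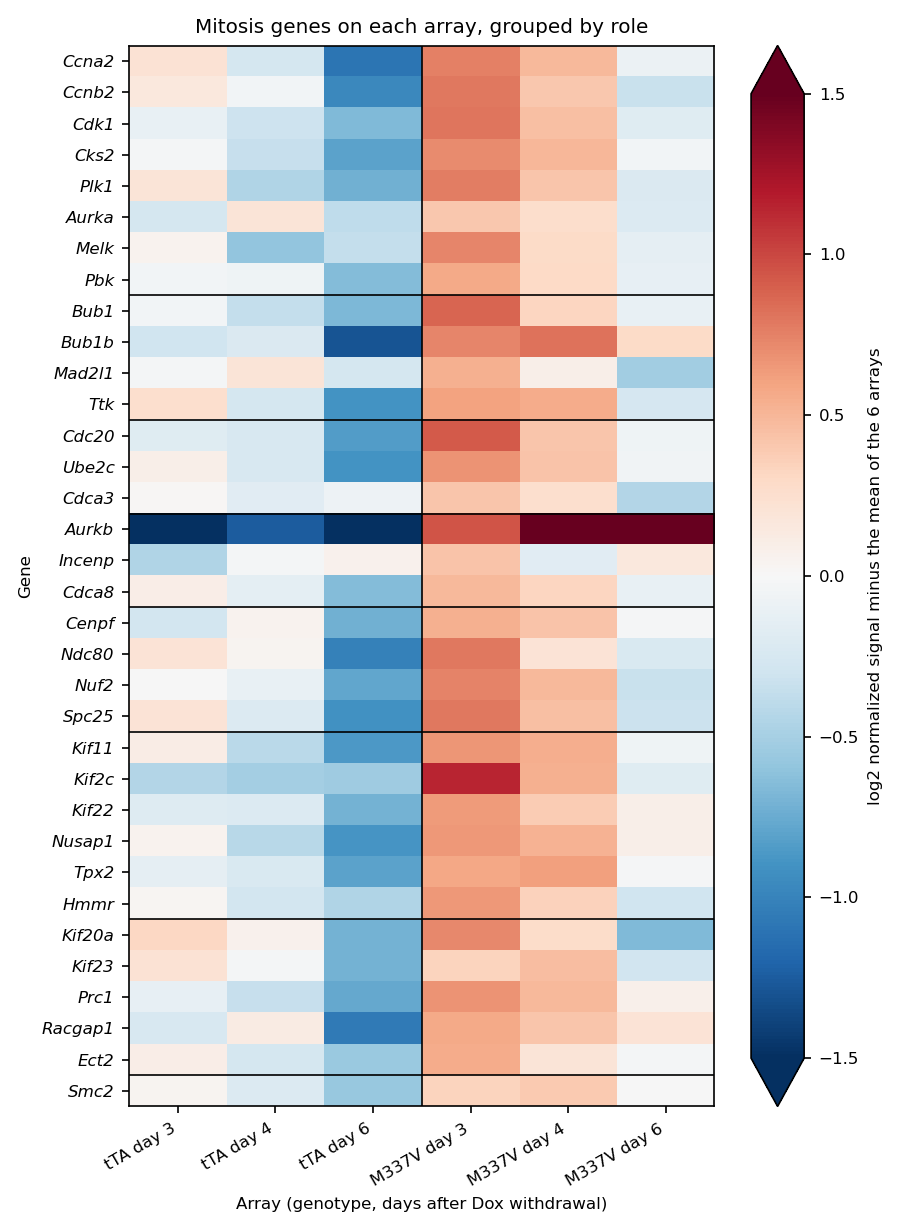
Level of each of the 34 tested mitosis genes (rows, grouped by role with black lines) on the 6 arrays (columns), as log2 normalized signal minus the gene's mean over the 6 arrays; the colour scale ends at -1.5 and 1.5. The M337V array of day 3 is the darkest red and the tTA array of day 6 the darkest blue in most rows, and Aurkb stands out with all tTA arrays low and all M337V arrays high.

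Of the 8 tested kinases, cyclins and cyclin partners of early mitosis, 7 rose. Cks2, a small subunit that binds the Cdk1 and cyclin complex, read 10.35, 10.02 and 9.58 in tTA (days 3, 4 and 6) and 11.08, 10.88 and 10.34 in M337V (log2 normalized signal). The M337V array was higher on each day by 0.74 to 0.85, a fitted difference of 0.78 ± 0.10 (SE, n = 3 days, adjusted p = 0.00609). Ccna2, the A-type cyclin of S phase and mitotic entry, read 8.37, 7.89 and 7.06 in tTA and 8.91, 8.63 and 8.06 in M337V. Its gap between genotypes was narrowest on day 3 and widest on day 6 (0.76 ± 0.12, adjusted p = 0.014). Ccnb2, a B-type cyclin, read 9.83, 9.62 and 8.70 in tTA and 10.46, 10.07 and 9.33 in M337V. The groups overlapped, since the M337V array of day 6 lay below both earlier tTA arrays, and within days it was higher by 0.57 ± 0.10 (adjusted p = 0.0169). Cdk1 itself was higher by 0.72 ± 0.12, and the polo-like kinase Plk1, which acts at centrosomes and kinetochores, by 0.64 ± 0.12. The kinases Melk (0.59 ± 0.15) and Pbk (0.50 ± 0.10) also rose. Aurka, the centrosomal Aurora kinase, did not pass (0.30 ± 0.15, adjusted p = 0.212), and of its gaps only that of day 3, 0.67, was wide. Its tTA readings of days 3 and 6, 5.14 and 5.02, lay near the lowest detected levels of those arrays (5.01 and 4.97).

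Of the 4 spindle checkpoint genes, 3 rose. Bub1b, which encodes the inhibitor of the anaphase-promoting complex BubR1, had the second largest difference of the set and read 6.37, 6.44 and 5.37 in tTA and 7.39, 7.48 and 6.95 in M337V. All M337V arrays were above all tTA arrays, by 1.22 ± 0.15 or 2.32-fold (adjusted p = 0.00581), and the tTA array of day 6 was well below the other 5. Bub1b passed in all 14 alternative settings, but its fitted value depended on them, from 0.61 to 1.35. Bub1, a kinetochore kinase, read 7.74, 7.42 and 7.11 in tTA (days 3, 4 and 6) and 8.66, 8.11 and 7.68 in M337V. It was higher on every day, most on day 3 (0.72 ± 0.11, adjusted p = 0.0124). Ttk, the kinase MPS1 that starts checkpoint signalling, read 7.53, 7.02 and 6.37 in tTA and 7.88, 7.83 and 7.02 in M337V, higher by 0.61 ± 0.12 (adjusted p = 0.0261). Mad2l1, the checkpoint protein MAD2, went another way and did not pass. It read 5.85, 6.07 and 5.61 in tTA and 6.41, 5.97 and 5.36 in M337V, so that M337V was above tTA on day 3 and below it on days 4 and 6 (0.07 ± 0.18, adjusted p = 0.815).

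Of 3 genes of anaphase degradation, 2 rose. Cdc20, the activator of the anaphase-promoting complex, read 8.37, 8.32 and 7.71 in tTA and 9.48, 8.97 and 8.49 in M337V. The lowest M337V array was above the highest tTA array, and the difference was 0.84 ± 0.12 (adjusted p = 0.0111). Ube2c, the ubiquitin-conjugating enzyme of that complex, read 7.65, 7.31 and 6.66 in tTA (days 3, 4 and 6) and 8.23, 7.98 and 7.51 in M337V. It was higher on each day (0.70 ± 0.10, adjusted p = 0.0111). Cdca3, a trigger of mitotic entry that works through protein degradation, was higher on days 3 and 4 and lower on day 6 and did not pass (0.15 ± 0.18, adjusted p = 0.612).

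The chromosomal passenger complex, which corrects faulty attachments and later guides cytokinesis, was the most uneven group. Its kinase Aurkb read 8.53, 8.93 and 8.54 in tTA and 11.13, 11.78 and 12.15 in M337V. All 3 M337V arrays were far above all 3 tTA arrays, by 3.02 ± 0.21 or 8.10-fold (adjusted p = 0.00127), and its M337V level climbed from day 3 to day 6 by 1.03 where other members dropped. The Aurkb probe thus moved unlike its partners in the complex, and whether it is specific to Aurkb was not checked. Without Aurkb the median of the remaining 33 members was 0.61. Cdca8, the subunit borealin, read 8.16, 7.91 and 7.41 in tTA and 8.55, 8.38 and 7.95 in M337V, a difference of 0.46 ± 0.10 (adjusted p = 0.0275). Incenp, the scaffold of the complex, read 5.48, 5.91 and 6.0 in tTA and 6.36, 5.76 and 6.10 in M337V. Its M337V array was higher on day 3 and the genotypes lay close on days 4 and 6, and it did not pass (0.28 ± 0.21, adjusted p = 0.404).

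Kinetochore genes rose in 3 of 4 cases. Spc25, a subunit of the NDC80 complex that holds microtubule ends, read 9.12, 8.70 and 8.0 in tTA (days 3, 4 and 6) and 9.71, 9.36 and 8.59 in M337V. The gap was nearly the same on all days (0.61 ± 0.09, adjusted p = 0.0123). Its partner Nuf2 was higher by 0.60 ± 0.11. Cenpf, a large protein of the outer kinetochore, read 5.43, 5.76 and 4.99 in tTA and 6.25, 6.14 and 5.70 in M337V. It was higher by 0.63 ± 0.12 (adjusted p = 0.0226), and by 0.21 to 0.76 over 14 alternative settings. The Cenpf reading of tTA on day 6 lay just above the lowest detected level of that array (4.97). Ndc80, which gives the complex its name, read 6.86, 6.69 and 5.63 in tTA and 7.43, 6.86 and 6.42 in M337V. It was higher on each day, with the narrowest gap on day 4, and missed the threshold (0.51 ± 0.14, adjusted p = 0.0637).

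Spindle motors and microtubule binders rose in 5 of 6 cases. Kif2c, the kinesin MCAK that takes microtubules apart, read 5.13, 5.07 and 5.04 in tTA and 6.71, 6.10 and 5.39 in M337V. The tTA readings lay just above the lowest detected level of their arrays (5.01, 5.02 and 4.97), so their flat course says little. The M337V arrays dropped toward them, and the difference went from 1.58 on day 3 to 0.35 on day 6 (fitted 0.99 ± 0.23, adjusted p = 0.0405). Kif2c passed in 9 of 14 alternative settings, with fitted values from 0.33 to 1.31. Nusap1, which bundles spindle microtubules, read 6.14, 5.66 and 5.20 in tTA (days 3, 4 and 6) and 6.73, 6.60 and 6.17 in M337V, with no overlap between genotypes (0.83 ± 0.12, adjusted p = 0.00986). Kif11, the motor Eg5 that pushes spindle poles apart, read 8.61, 8.09 and 7.64 in tTA and 9.16, 9.05 and 8.44 in M337V. It was higher by 0.77 ± 0.12 (adjusted p = 0.012). The chromosome arm kinesin Kif22 (0.74 ± 0.10) and the spindle assembly factor Tpx2 (0.78 ± 0.10) also rose without overlap, whereas Hmmr, a spindle protein also known as a hyaluronan receptor, did not pass (0.47 ± 0.13, adjusted p = 0.0651).

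Cytokinesis genes divided, with 3 of 5 higher. Prc1, which cross-links the microtubules of the central spindle, read 10.08, 9.86 and 9.44 in tTA and 10.87, 10.68 and 10.27 in M337V. Its day-to-day gap was the steadiest among the members shown, between 0.79 and 0.84, with no overlap between genotypes (0.82 ± 0.09, adjusted p = 0.005). Racgap1, of the centralspindlin complex, read 5.97, 6.33 and 5.14 in tTA and 6.78, 6.62 and 6.41 in M337V. The gap was widest on day 6, where the tTA array was lowest (0.79 ± 0.19, adjusted p = 0.0441). Ect2, the exchange factor that activates RhoA at the cleavage furrow, was higher by 0.48 ± 0.09. Kif20a, a kinesin of the central spindle, read 8.91, 8.67 and 7.90 in tTA (days 3, 4 and 6) and 9.32, 8.88 and 7.94 in M337V. Both genotypes had nearly the same level on day 6, and the difference of 0.22 ± 0.11 did not pass (adjusted p = 0.23). Kif23, the motor of centralspindlin, was at 0.34 ± 0.12 and did not pass either (adjusted p = 0.0978). Smc2, the one condensin and chromosome structure gene tested, read 8.68, 8.44 and 8.07 in tTA and 8.98, 9.03 and 8.63 in M337V, higher by 0.48 ± 0.11 (adjusted p = 0.035).

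**Figure D3:**
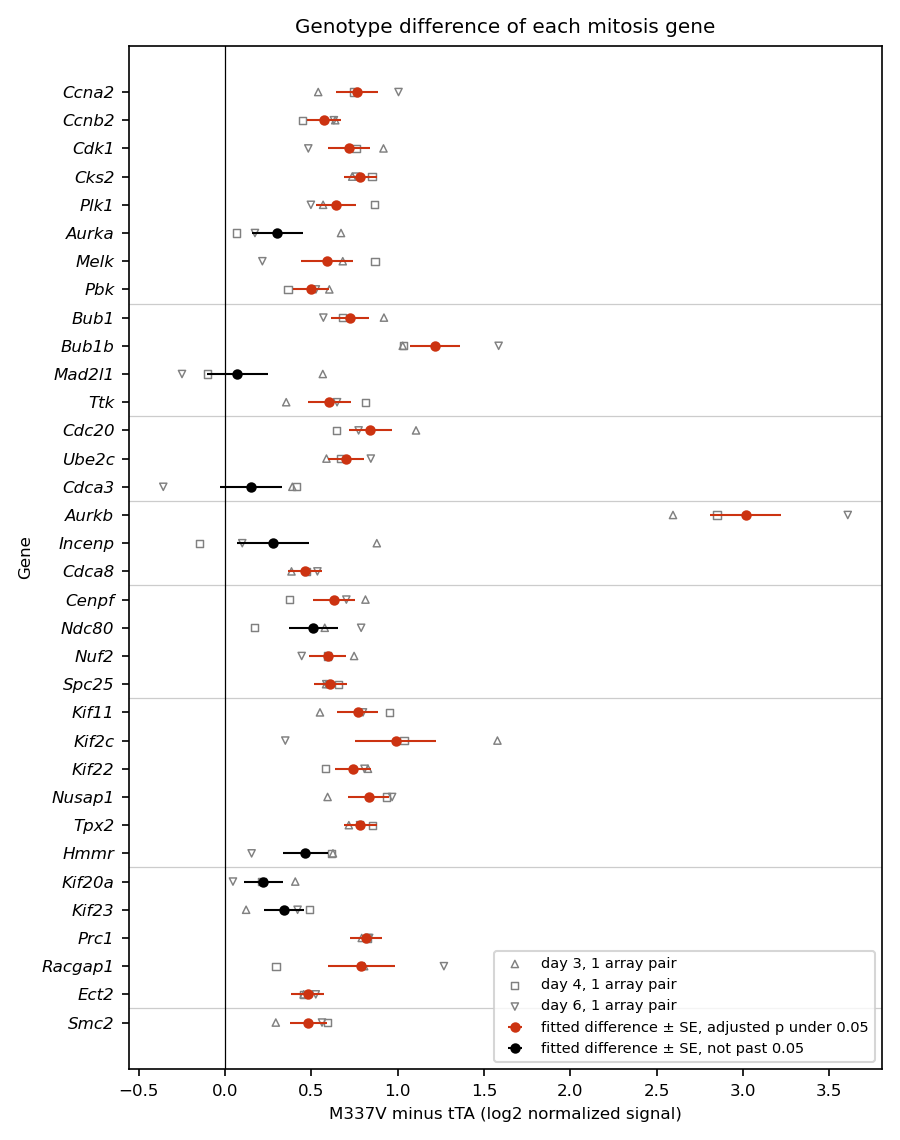
M337V minus tTA for each tested mitosis gene on the log2 scale, with the fitted difference and its standard error (filled circles, red where the adjusted p is under 0.05) and the difference on each single day (open symbols). All 34 fitted values lie above 0, 26 of them in red, and Aurkb lies far to the right at 3.02.

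The second comparison was between days. In normalized signal, most mitosis genes were lower on day 6 than on day 3 in both genotypes. Of the 34, 10 fell at an adjusted p under 0.05 and none rose, where 0.963% of all genes fell and 1.56% rose (73 and 118 genes, against 80 and 544 with median scaling). The median difference was -0.72, a 1.65-fold lower signal, against -0.01 over all genes. It was -0.66 in tTA and -0.74 in M337V, each from a single pair of arrays. Before normalization the median member signal was 314, 270 and 211 in tTA and 364, 434 and 365 in M337V (days 3, 4 and 6). In M337V that median was thus highest on day 4 and nearly equal on days 3 and 6, so its fall is seen only after normalization. Day 6 was below day 3 in both genotypes for 32 members, all but Aurkb and Incenp, where 32.8% of all genes showed this, and 22 members were lower on each later day in both genotypes, against 10.4% of all genes.

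The 10 genes that fell were Kif20a, Ccnb2, Spc25, Ndc80, Ccna2, Ttk, Plk1, Nuf2, Ube2c and Cks2, from 5 of the 8 roles. Kif20a had the largest drop, -1.20 ± 0.14 (adjusted p = 0.0309), on arrays whose genotype gap was among the smallest. Ccnb2 fell by 1.13 on the log2 scale (SE 0.12, adjusted p = 0.0309), Spc25 by 1.12 (SE 0.12, adjusted p = 0.0276) and Ndc80 by 1.12 (SE 0.18, adjusted p = 0.046). Ccna2 (-1.08 ± 0.15), Ttk (-1.01 ± 0.15), Plk1 (-0.95 ± 0.14) and Nuf2 (-0.93 ± 0.13) followed. The adjusted p of the 10 lay between 0.0276 and 0.046, close to the threshold. The count depended on the processing, from 0 members without day 4, where 1 of all genes fell, to 25 with a variance trend, where 426 of all genes did, against 73 in the fit given here. Among the members that did not pass were Bub1 (-0.81 ± 0.14, adjusted p = 0.0512), Kif11 (-0.85 ± 0.14, adjusted p = 0.0511), Cdca8 (-0.68 ± 0.12, adjusted p = 0.0536) and Cdk1 (-0.77 ± 0.15, adjusted p = 0.062).

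For 22 of 34 members the M337V array of day 6 was below the tTA array of day 3, as it was for 55.7% of all genes. The remaining 12 were Aurka, Aurkb, Bub1b, Cdc20, Cenpf, Incenp, Kif22, Kif2c, Nusap1, Prc1, Racgap1 and Tpx2. Over the same days the summed microglia signal went up in M337V from 7710 to 25369, while the fibroblast and meningeal sum was lower on day 6 in both genotypes.

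**Figure D4:**
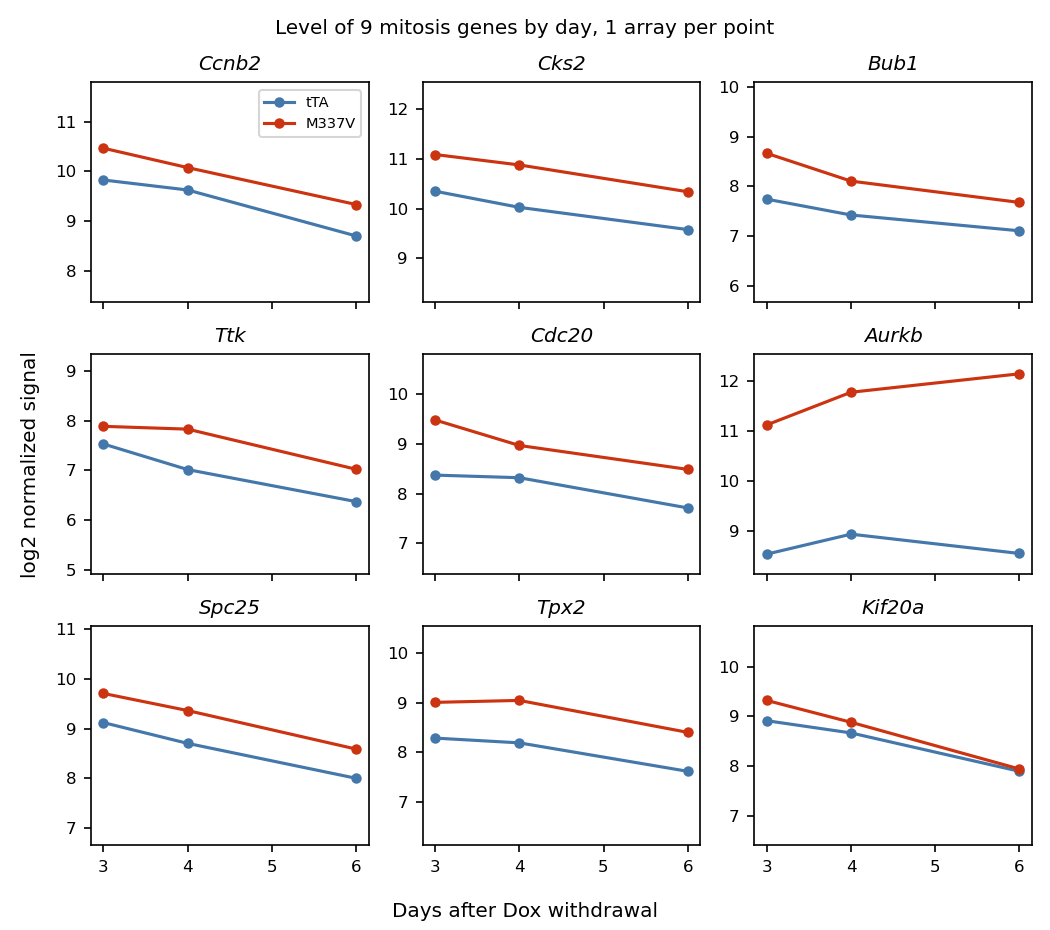
Level of 9 mitosis genes (log2 normalized signal, each panel spanning the same range) at 3, 4 and 6 days after Dox withdrawal in tTA (blue) and M337V (red) cultures, 1 array per point. In 8 panels both lines end lower on day 6 than on day 3 with M337V above tTA, and those of Kif20a nearly meet on day 6, whereas the M337V line of Aurkb climbs from 11.13 to 12.15.

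Whether the genotype difference itself changed with time was tested as a slope per day. No member passed, and neither did any of the 7580 genes (0% called, limma). At an unadjusted p under 0.05 stood 3 members, against 738 of all genes (9.74%). These 3 were Kif2c (slope -0.40 ± 0.08 per day, adjusted p = 0.246), Aurkb (0.34 ± 0.08, adjusted p = 0.294) and Cdca3 (-0.27 ± 0.09, adjusted p = 0.445). The slopes of the 34 divided evenly, 17 above and 17 below 0. Aurkb passed in 5 of 9 alternatives, without background correction, with median scaling, the deposited values, an offset of 50 or a variance trend. The slope counts over all genes in those fits are not given here.

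**Figure D5:**
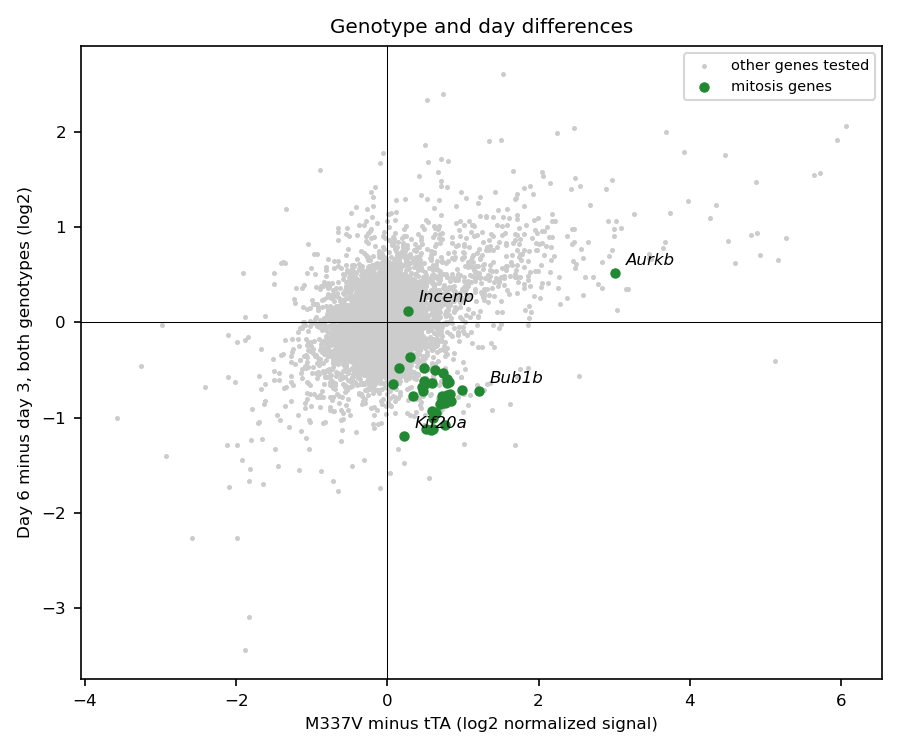
Genotype difference (horizontal axis) against the difference between day 6 and day 3 (vertical axis) on the log2 scale, from 1 fit, for the 34 mitosis genes (green) and the other genes tested (grey). All but 2 of the mitosis genes lie in the quadrant of higher in M337V and lower on day 6, while Incenp lies near the centre and Aurkb to the upper right.

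Other lists of mitotic genes, outside the 49, are read here against the 9.68% of all genes that rose and the 9.68% that fell. Of 24 further spindle, centrosome and cytokinesis genes tested, 9 rose and 1 fell (median 0.31), led by the minus-end kinesin Kifc1 (1.0 ± 0.14), the centriole duplication kinase Plk4 (0.98 ± 0.10) and the spindle pole protein Aspm (0.92 ± 0.12). The one that fell, Numa1 (-0.65 ± 0.15), also acts at spindle poles and is a nuclear protein in resting cells. Of 13 further kinetochore and checkpoint genes 2 rose and none fell (median 0.17), a share near that of all genes. Those were Mis18a, which loads the centromeric histone (at least 1.86-fold higher, adjusted p = 0.00486, detected on 1 of 3 tTA arrays and kept through M337V, with each tTA array that missed it taken at the lowest detected signal of that array or at its own value if higher), and Cenpk (0.70 ± 0.12), while Cenpi (0.57 ± 0.21) did not pass. In the cohesin and condensin list none of 9 passed (median 0.11), with Ncapd2 (0.39 ± 0.11), Ncapd3 (0.26 ± 0.10) and Stag1 (0.23 ± 0.11) largest. At an unadjusted p under 0.05 (limma) stood 2 of these 9, no larger a share than the 2574 of 7580 genes (34%) that stood there in all. Subunits and partners of the anaphase-promoting complex gave 1 rise among 13, Cdc26 (0.44 ± 0.10), also near the share of all genes, and a median of 0.06, with Fzr1 at -0.42 ± 0.13 and Anapc7 at -0.27 ± 0.23 not passing.

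A list of mitotic entry regulators, transcription factors and related genes gave 2 rises among 13 tested and no fall (median 0.20), again a share near that of all genes. Foxm1, named above with the CHR, did not pass (0.11 ± 0.13). Gmnn, the licensing inhibitor geminin, was higher by 0.93 ± 0.11 and the phosphatase Cdkn3 by 0.44 ± 0.11, while Ccnf was at 0.38 ± 0.11 without passing. Of 12 tested genes of cell cycle arrest and the p53 pathway, 4 fell and none rose, with a median of -0.20. The list also holds Mdm2, which opposes p53 and did not pass (0.33 ± 0.10). Gadd45b (-0.84 ± 0.09), Gadd45a (-0.80 ± 0.13) and Gadd45g (-0.68 ± 0.16), growth arrest and DNA damage genes, fell, as did Cdkn1a (-0.70 ± 0.14), which encodes the Cdk inhibitor p21. The Gadd45b tTA arrays read 6.85 to 6.88 and its M337V arrays 6.01 to 6.04, far apart with nearly no change between days.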

How the data were processed

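Per the labels' protocols, RNA was isolated with a column kit and converted to amplified, biotin-carrying RNA for Illumina beadchips. GenomeStudio is named in the submitters' processing notes, without a version. The deposited non-normalized table gives a linear bead signal intensity and a detection p-value for every probe on each of the 6 arrays, per the file headers. A second deposited table holds log2 values of the authors. Differences between its columns match log2 intensity after removal of the upper quartile of each array, to within 0.00215. Their centring is unknown, since the median over these 6 arrays is 0 for only 1964 of 22523 probes (within 1e-05). Its column medians lay between -0.15 and 0.065.

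The intensities were processed in R 4.3.3 by the neqc routine of limma 3.58.1, that is normexp background correction guided by the detection p-values, an offset of 16, quantile normalization and then log2, which shrinks the differences of dim genes. Gene names come from the platform annotation in GEO (13793 probes with 1 gene symbol; the others are unnamed here), and no symbol changed against NCBI's gene table (GRCr8). Where a gene had several kept probes the brightest on average stood for it, giving 7580 genes.

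The fit (lmFit, eBayes) held genotype and day (as a factor), with 2 residual degrees of freedom (prior 3.46), so the standard errors rest largely on other genes. The slope fit had 1 (prior 4.68). The day is given by the labels for both genotypes, and the deviations of same-day arrays from their genotype means were positively correlated (0.439, 0.0784 and 0.423 on days 3, 4 and 6). p-values were adjusted over all genes (Benjamini-Hochberg, threshold 0.05), and tests were two-sided. The fits were also run on simulated data with noise drawn independently for each array, which leaves out differences between cultures. The number of arrays limits the precision.

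The members and lists were chosen with earlier results of these data known, from textbook roles. Values per array are given for the 2 members per role with the largest genotype difference and the 1 with the largest day difference, and up to 3 genes are named per other list. Others are named because a count is 5 or fewer or after their values were seen.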

Additional observations from a re-analysis of the deposited data

How the results depend on the processing

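The median genotype difference of the mitosis genes stayed above 0 in all 14 alternatives. It was 0.38 without background correction, 0.39 with the deposited values, 0.53 with an offset of 50, 0.71 with cyclic loess and 0.73 with median scaling, and 0.62 to 0.65 with a day left out. No member was called lower in any of them. The count of members higher, 26, lay between 23 and 29 in the 10 alternatives that kept the day in the fit and all arrays, but was 3 without the replicate block and 9 to 19 with a day left out (15 without day 3, 9 without day 4 and 19 without day 6), fits with fewer arrays. For the fits without the block or with a day left out, the count over all genes is not given here. Aurkb, Bub1b and Prc1 passed in all 14, and Aurka, Cdca3, Incenp, Kif20a and Mad2l1 in none. Melk, at an adjusted p of 0.0486, passed in 6. Without day 3, Mad2l1 was at -0.17 and Incenp at -0.02.

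Members lower on day 6, 10, became 24 without background correction and with an offset of 50, 22 with the deposited values, 22 when detection on all 6 arrays was required, 25 with a variance trend, 18 with a linear day term, 6 with dim probes kept, and 0 without day 4, a fit with 1 residual degree of freedom. The count over all genes, 73, moved in the same settings, to 365, 265, 275, 228, 426, 93, 49 and 1 in that order of settings. The median was -0.49 without background correction, with median scaling and with the deposited values, -0.60 with an offset of 50 and -0.66 with cyclic loess. Median scaling moved the median day difference of all genes from -0.01 to 0.18. It also moved the split of called genes from 734 higher and 734 lower to 799 and 441 for the genotype, and from 118 higher and 73 lower to 544 and 80 for the day. The deposited values gave 739 and 1121 for the genotype. For the slope, 1 member rose without background correction, with median scaling, the deposited values, an offset of 50 or a variance trend (Aurkb, 5 of 9 alternatives). Kif2c fell with an offset of 50. The slope counts over all genes in these alternatives are not given here, so these calls cannot be set against them. The causes were not tested. The lowest detection p of Ccnb1, Cenpa and the second Kif11 probe was 0.108, 0.0727 and 0.057. A stricter threshold of 0.01 therefore could not change their place below background. Changes in them cannot be seen at this signal.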

Other observations

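Of 26 tested DNA replication genes, which act before mitosis, 12 rose in M337V, none fell and 14 did not pass (median 0.40), where 9.68% of all genes rose. On all 3 days 19 were higher in M337V, as were 23.1% of all genes. The 12 include Orc1, a subunit of the origin recognition complex, which was detected on no tTA array and was kept only through the M337V arrays. The replication fork subunit Gins1 (1.01 ± 0.23), the primase subunit Prim2 (0.89 ± 0.14) and the helicase subunit Mcm3 (0.73 ± 0.15) had the largest differences. From day 3 to day 6, 2 of the 26 fell, where 0.963% of all genes did. Among 10 G1 cyclins, E2F and related genes only Myc rose (0.64 ± 0.10) and none fell (median 0.10), and Cdk6 (-0.45 ± 0.22) and Ccne2 (0.27 ± 0.20) did not pass.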
